A study of Mus musculus with 7 samples.

Results

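The windows described here are 200 bp stretches of the mouse genome in which the chromatin remodeller BRG1 gave more reads in stimulated Th1 cells than in stimulated Th2 and stimulated Th17 cells. A window was a member where stimulated Th1 cells had at least 3 RPM (reads per 1000000 distinct reads), at least 2.5 times the RPM of both other stimulated libraries, and at least 3 times the input RPM plus 0.3. These conditions held in 1163 autosomal windows. They were 5.87% of the 19801 windows that passed the level and input conditions in stimulated Th1 cells, and 0.0154% of the 7552364 autosomal windows with a read in any library. Since the stimulated libraries and the input chose the members, their values below are a description. The naive and resting libraries took no part in the choice.

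BRG1 was profiled by chromatin immunoprecipitation and sequencing with the J1 antibody in CD4+ T helper cells of Balb/c mice, with 1 library per group. The stimulated Th1, Th2 and Th17 groups were treated for 1.5 h with PMA (50 ng/ml) together with ionomycin (500 ng/ml), and the resting Th1 and Th2 groups were not. All were cultured from naive CD62L+ cells, the last group, which came from spleens and lymph nodes of animals aged 4 to 6 weeks. All cultured groups received antibodies against CD3 and CD28, coated on the plate at 1 and 2 µg/ml for Th1 and Th2 but soluble at 4 and 1 µg/ml for Th17, so the Th17 cultures differed in more than cytokines. The Th1 cultures held IL-12, an antibody against IL-4, and IL-2. Th2 cultures held IL-4, an antibody against IFNγ, and IL-2. In the Th17 cultures, IL-6, IL-1β, TGF-β and antibodies against IL-4 and IFNγ were used, followed by IL-23. The input was DNA of pooled CD4+ T helper cells without immunoprecipitation. The number of animals behind a library is not given in the sources used here, and without RNA data the identity of the cells could not be checked on marker genes.

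BRG1 provides the ATPase activity of SWI/SNF (BAF) complexes, which slide or evict nucleosomes and so open enhancers and promoters. Th1 cells are the helper subset that makes interferon gamma under the factor T-bet, Th2 cells make IL-4, IL-5 and IL-13 under GATA3, and Th17 cells make IL-17 under RORγt. PMA and ionomycin bypass the T cell receptor and trigger protein kinase C and calcium signals, so that cytokine genes are induced quickly. No mm9 annotation or genome was used here, so windows are given by their mm9 coordinates, with no genes and no sequences.

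The distinct reads numbered 3917492 stimulated Th1, 4261900 stimulated Th2 and 7892944 stimulated Th17 reads, 1808000 in resting Th1, 1340208 in resting Th2, 2071800 in naive and 3531867 in input. One read was thus worth 0.553 RPM in resting Th1, 0.746 RPM in resting Th2 and 0.483 RPM in naive, so a single window says little about an unstimulated library and most results below pool the reads of all members. Intervals are 95% exact intervals for counting error only. They leave out the spread between cultures, which 1 library per group cannot show, and no p-value is given. Intervals on percentages of windows take the windows as independent trials.

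In stimulated Th1 cells the members were modest sites, and they were lower still in every other library. The number of stimulated Th1 reads per member was 12 at the lowest, 15 at the median and 67 at the highest. Their mean level was 4.38 RPM in stimulated Th1 (4.31 to 4.44), 1.27 RPM in stimulated Th2, 1.06 RPM in stimulated Th17 and 0.30 RPM in input. The unstimulated means were 1.13 RPM in resting Th1 (1.08 to 1.18), 0.925 RPM in resting Th2 (0.877 to 0.974) and 0.851 RPM in naive (0.814 to 0.888). The other 18638 windows that passed the level and input conditions were higher in all 7 libraries, with 5.35 RPM in stimulated Th1, 2.67 RPM in resting Th1, 2.90 RPM in resting Th2, 1.78 RPM in naive and 0.577 RPM in input. These other windows serve as the background below.

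**Figure D1:**
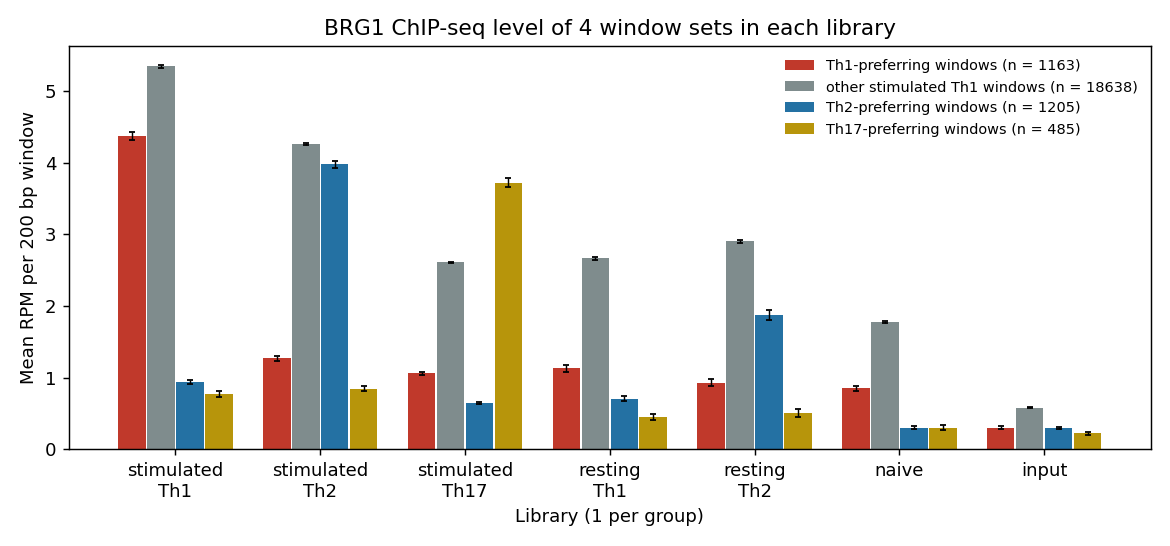
Mean RPM per 200 bp window (y axis) in each of the 7 libraries (x axis) for the Th1-preferring windows, the other windows passing the level and input conditions in stimulated Th1 cells, and the windows preferring stimulated Th2 or stimulated Th17 cells. Bars are means and whiskers 95% exact Poisson intervals of the pooled reads. The Th1-preferring windows have 4.38 RPM in stimulated Th1 and 0.851 to 1.13 RPM in the unstimulated libraries, where the Th2-preferring windows have 1.88 RPM in resting Th2 and 0.296 RPM in naive.

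The preference was close to its threshold in many members. The median ratio of stimulated Th1 to stimulated Th2 was 3.26, and the highest was 20.7 among members with a stimulated Th2 read, and 10 members had none. The median ratio of stimulated Th1 to stimulated Th17 was 4.03, with a highest value of 68.5, and 13 members had no stimulated Th17 read. Taking the smaller of both ratios, 373 members lay within 10% above the 2.5-fold threshold and 528 windows within 10% below it. Just inside stood 10 members with a ratio of 2.502, and just outside 1 window with 2.496. At the level threshold, 227 members had 12 stimulated Th1 reads (3.06 RPM), and 253 windows that passed the other conditions had 2.81 RPM. At the input threshold, the nearest members had 3.03 times and the nearest excluded window 2.96 times the input RPM plus 0.3.

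The same reads chose and measured the members. How much of their own preference is due to that choice was not tested, but the rule was also applied to part of the reads and the windows it gave were read in the rest. When windows were chosen by the rule on plus-strand reads alone, 3187 windows passed, with a stimulated Th1 to stimulated Th2 ratio of 4.06 in those reads. In the minus-strand reads, which had not chosen them, the ratio was 1.46 (1.43 to 1.50), and against stimulated Th17 it was 2.21 (2.16 to 2.26). The other windows passing the level and input conditions had 1.18 and 1.81 in the same minus-strand reads. The 2.5-fold preference was found again on the minus strand in 15.7% of the chosen windows (14.4 to 17.0), against 5.73% of the other windows. Windows preferring stimulated Th2, chosen in the same way, kept 1.60 of a stimulated Th2 to stimulated Th1 ratio of 4.73. This split was chosen after the data were examined, and its windows are another set than the 1163 members, chosen at lower depth. With odd-numbered reads choosing and even-numbered reads counting, 1848 windows had 3.68 in the choosing reads and 2.31 (2.24 to 2.38) in the counted ones over stimulated Th2. Over stimulated Th17 the counted ratio was 3.22 (3.13 to 3.31), and the 2.5-fold preference was found again in 38.0% (35.8 to 40.2), against 3.42% of the other windows. Odd- and even-numbered reads alternate along a window and so are not independent.

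Resting Th1 cells had more reads than resting Th2 cells in the members, although neither library chose them. The members held 2374 reads in resting Th1 and 1441 in resting Th2, an RPM ratio of 1.22 (1.14 to 1.30). In the other stimulated Th1 windows the ratio was 0.918 (0.909 to 0.927), so the members' ratio was 1.33 times theirs (1.24 to 1.42). Over all autosomal windows it was 0.997. Windows preferring stimulated Th2 cells, found by the same rule with the subsets exchanged, had a ratio of 0.376 (0.354 to 0.400), and those preferring stimulated Th17 cells 0.886 (0.763 to 1.03). The order of the subsets after stimulation thus also stood at rest. The background suits the members only, since 3 of the 1205 Th2-preferring windows passed the level and input conditions in stimulated Th1 cells. A matching background of other stimulated Th2 windows was not drawn, so the sizes of the departures in these sets cannot be compared. The value above 1 depended on the scale: with each library set to its median 10 kb bin and the members chosen anew, 3435 windows passed and their ratio was 0.887 (0.846 to 0.930). That scale rests on medians of 5 reads per bin in resting Th1 and 3 in resting Th2. Set against the other stimulated Th1 windows, the ratio was still higher on that scale, 1.19 times (1.13 to 1.25).

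The same direction was found on most chromosomes. The members' ratio of resting Th1 to resting Th2 was above 1 on 16 of 19 autosomes, from 0.853 on chromosome 3 to 1.83 on chromosome 12. It was above that of the other stimulated Th1 windows on 18 of 19, with chromosome 3 as the exception, and above that of the Th2-preferring windows on 19 of 19. With each chromosome left out in turn, the pooled ratio ran between 1.2 and 1.25. All 19 values come from the same resting libraries and share their scale. The count above 1 thus depends on that scale as the pooled ratio does.

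Window by window the resting difference was small and went both ways. Resting Th1 RPM was higher than resting Th2 RPM in 530 members, lower in 395, and 238 had no read in either library. Of the other stimulated Th1 windows, 41.0% were higher and 49.7% lower in resting Th1, against 45.6% and 34% of the members. Among the 280 members with at least 5 reads in the pair, 94 were at least 2-fold higher in resting Th1, where 15.3% of the other stimulated Th1 windows and 17.8% of all autosomal windows reached that fold, each share taken over windows with at least 5 reads in the pair. The 94 are 33.6% (28.1 to 39.4). A share that high was not particular to the members. It was 30% (25.1 to 35.3) in windows with the preference over stimulated Th2 but not stimulated Th17. In 42 Th17-preferring windows it was 31.0% (17.6 to 47.1), and in the Th2-preferring windows 4.84%. The sets were not matched for read number: 280 of 1163 members and 10466 of 18638 other windows had at least 5 reads in the pair. A further 51 members, 18.2% (13.9 to 23.2), were at least 2-fold lower in resting Th1, near the 20.2% of the other stimulated Th1 windows and below the 27% of all windows, counted in the same way. The median log2 ratio of those 280 members, with 0.25 RPM added, was 0.28. It was -0.10 over the tested other stimulated Th1 windows and -0.05 over all tested windows.

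The strength of the stimulated preference over Th2 went along with the resting Th1 to resting Th2 ratio. In the 204 members with at least 5 times as much RPM in stimulated Th1 as in stimulated Th2, the resting Th1 to resting Th2 ratio was 1.65 (1.36 to 2.02). It was 1.26 (1.10 to 1.45) in the 294 members between 3.5 and 5 times, and 1.14 (1.05 to 1.24) in the 665 members between 2.5 and 3.5 times. The intervals of the strongest and the weakest stratum do not overlap, while those of neighbouring strata do. From the weakest to the strongest stratum, resting Th2 over naive was 1.19, 1.09 and 0.688. Resting Th1 over naive was 1.36, 1.37 and 1.14, so it did not rise with the preference. On the scale of the median 10 kb bin, with the members chosen anew, the ratio of the strongest stratum was 0.978 (0.885 to 1.08). No such order appeared with the preference over stimulated Th17, where the resting ratios were 1.16, 1.30 and 1.25 from the weakest to the strongest stratum. By the members' own level, the resting ratio was 1.19 at 12 to 13 stimulated Th1 reads, 1.19 at 14 to 16, 1.14 (0.977 to 1.34) at 17 to 20 and 1.34 (1.18 to 1.51) at 21 or more, with overlapping intervals. In the other stimulated Th1 windows it lay between 0.902 and 0.940 in these classes.

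Splitting the preference into its parts gave the same picture. Windows with the 2.5-fold preference over stimulated Th2 but not over stimulated Th17 numbered 1016, and their resting Th1 to resting Th2 ratio was 1.25 (1.17 to 1.33). The members' ratio was 0.978 times theirs (0.892 to 1.07), an interval that holds 1. Windows with the preference over stimulated Th17 but not over stimulated Th2 numbered 6533 and had 0.879 (0.863 to 0.895), and the 11089 with neither had 0.927 (0.916 to 0.938). No resting Th17 library was analysed here, so the Th17 side of the rule has no counterpart at rest.

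**Figure D2:**
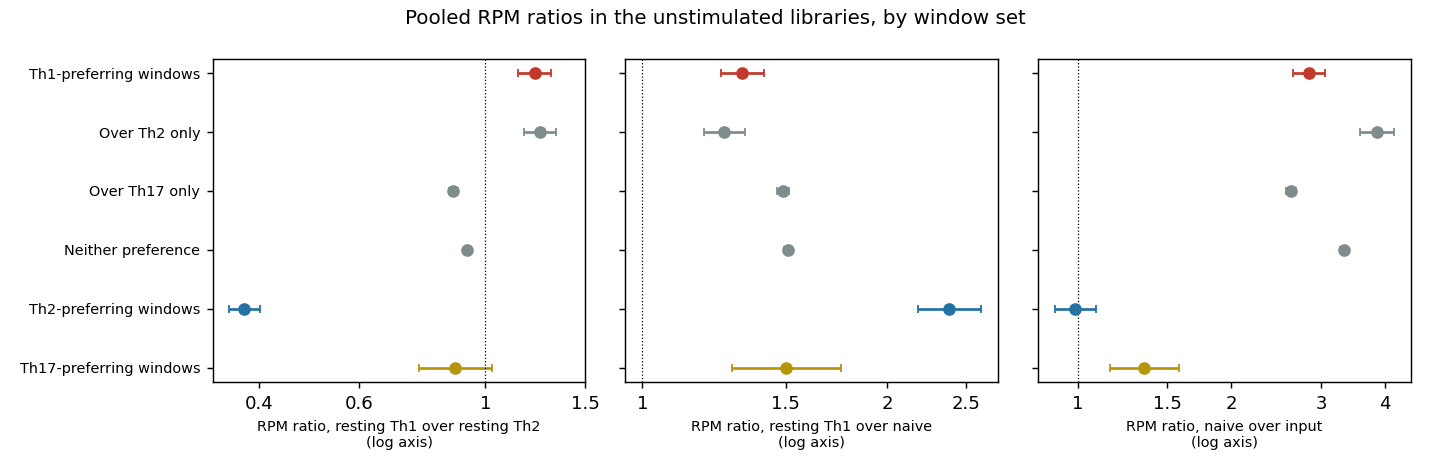
Pooled RPM ratios with 95% exact intervals (x axes, log scale) of resting Th1 over resting Th2, resting Th1 over naive, and naive over input, for 6 window sets (rows). Th1-preferring windows lie at 1.22, 1.33 and 2.84, and Th2-preferring windows at 0.376, 2.38 and 0.990.

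Pooled, the members already held BRG1 reads above input in naive cells, unlike windows preferring stimulated Th2 cells. Still, 434 members (37.3%) had no naive read, against 25.6% of the other stimulated Th1 windows and 65.1% of the Th2-preferring windows. Naive cells had 2050 reads in the members, 2.84 times the input RPM (2.64 to 3.05). The input was held low by the rule, which raises this ratio. The Th2-preferring windows met the same input condition and had 0.990 (0.903 to 1.08). Against the windows next to them, however, input was 0.719 times in the members and 1.14 times (1.06 to 1.22) in the Th2-preferring windows. The part of the input in the difference between these sets was not tested. The members' naive to input ratio was 2.87 times that of the Th2-preferring windows (2.55 to 3.22; 1.84 when windows were chosen on plus-strand reads) and 2.10 times that of the Th17-preferring windows (1.77 to 2.49). It was 0.920 times that of the other stimulated Th1 windows (0.856 to 0.989), so a naive signal was not particular to the members. The naive to input ratio of the members was above 1 on 19 of 19 autosomes, from 2.08 to 3.73, and above that of the Th2-preferring windows on each of them. The Th2-preferring windows were above 1 on 7 of 19. The naive excess was not confined to the member windows. At 200 to 400 bp from them naive was 1.87 times input (1.81 to 1.94). The same distance gave 1.79 beside the other stimulated Th1 windows and 1.14 beside the Th2-preferring windows.

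Between resting and naive cells the members differed less than the Th2-preferring windows did. The ratio of resting Th1 to naive was 1.33 (1.25 to 1.41) in the members, against 1.50 (1.48 to 1.51) in the other stimulated Th1 windows. The ratio of resting Th2 to naive was 1.09 (1.02 to 1.16) in the members, against 1.63 (1.61 to 1.65). With the median 10 kb bin as the scale and the members chosen anew, resting Th2 over naive was 1.68, and with a 3-fold preference it was 0.976. Both comparisons use the same naive library. In the Th2-preferring windows the ratio of resting Th2 to naive was 6.33 (5.84 to 6.87), and that of resting Th1 to naive 2.38 (2.18 to 2.61). In the 204 members with the strongest preference over stimulated Th2, resting Th2 lay below naive, at 0.688 (0.563 to 0.836), and resting Th1 lay at 1.14 (0.973 to 1.33). Of 351 members with at least 5 reads in resting Th1 and naive together, 114 were at least 2-fold higher in resting Th1, which is 32.5%, near the 35.7% of the other stimulated Th1 windows and the 33.2% of all windows with that many reads. A further 59 were at least 2-fold lower, 16.8%, against 9.55% and 14.6%. For resting Th2 and naive, 69 of 262 members were at least 2-fold higher, 26.3% against 40.9% both in the other stimulated Th1 windows and in all windows. The 63 that were at least 2-fold lower were 24.0%, against 11.3% and 17%.

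**Figure D3:**
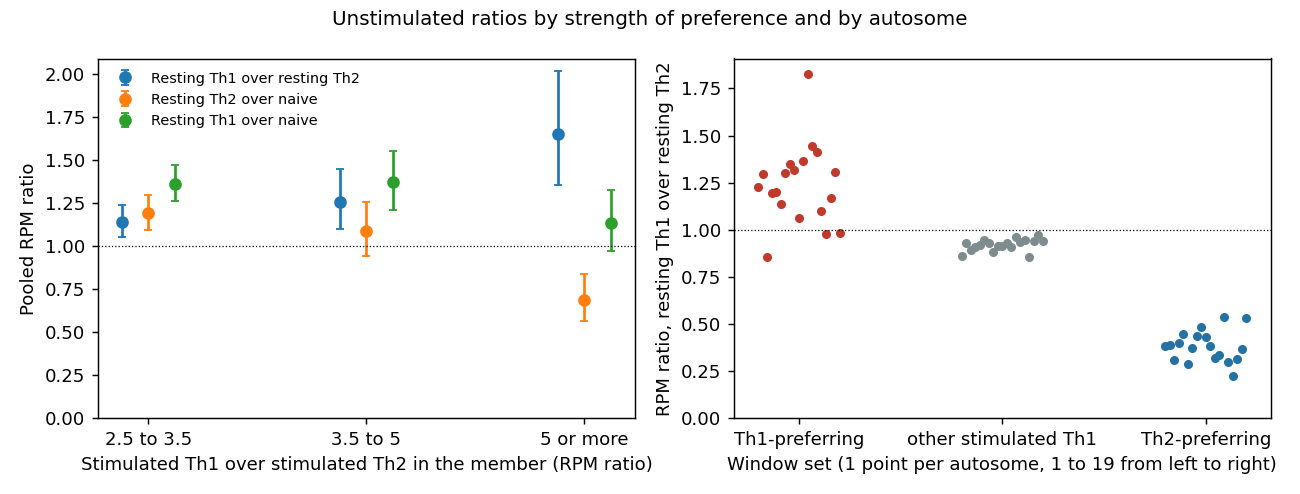
Left, pooled RPM ratios among unstimulated libraries (y axis) in members grouped by their ratio of stimulated Th1 to stimulated Th2 (x axis), with 95% exact intervals; resting Th1 over resting Th2 is 1.14 in the weakest and 1.65 in the strongest group. Right, the ratio of resting Th1 to resting Th2 (y axis) with 1 point per autosome for 3 window sets, where the members run from 0.853 to 1.83.

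Few members would have been picked out in an unstimulated library on its own. With the level and input conditions of the rule, 98 members passed in resting Th1, 56 in resting Th2 and 41 in naive. These are 8.43% (6.89 to 10.2), 4.82% (3.66 to 6.21) and 3.53% (2.54 to 4.75) of the members, against 26%, 27% and 13.7% of the other stimulated Th1 windows. Over all autosomal windows with a read the shares were 0.143%, 0.171% and 0.0571%. The share in resting Th1 was 4.70% with a minimum of 2 RPM in stimulated Th1, and 5.07% on the scale of the median 10 kb bin. Of the 136 members that passed in any of these libraries, 53 passed in resting Th1 alone, 21 in resting Th2 alone, 14 in naive alone and 11 in all of them. No read in any unstimulated library was found in 146 members, 12.6% (10.7 to 14.6), against 5.70% of the other stimulated Th1 windows, 13.2% of the Th2-preferring and 30.9% of the Th17-preferring windows. The pooled RPM of the members in stimulated Th1 was 3.88 times that in resting Th1 (3.71 to 4.05), a value that the rule raised, since it chose high stimulated Th1 counts.

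Around the members the unstimulated reads formed a broad mound and not a peak. Input rose towards the members as well, from 0.164 RPM at -2000 bp to 0.404 RPM at -200 bp. Over the same span naive went from 0.249 to 0.753 RPM and resting Th1 from 0.302 to 0.985 RPM. The part of the input's rise in the mound was not tested. In stimulated Th1 cells the member window had 2.04 times the RPM of the windows next to it (2.00 to 2.08), which the rule favours. In resting Th1 cells it had 1.08 times (1.03 to 1.14) and in naive cells 1.09 times (1.03 to 1.15) the RPM of its neighbours. In resting Th2 cells the member window lay below its neighbours, at 0.895 times (0.840 to 0.953), with 0.925 RPM against 1.03 RPM. The other stimulated Th1 windows stood 2.55 times above their neighbours in resting Th1, 2.53 times in resting Th2 and 2.16 times in naive, and the Th2-preferring windows 2.03 times in resting Th2. Neighbours of the same set were left out, leaving 1123 per side for the members and 14184 for the other windows. Other stimulated Th1 windows thus stayed among the members' neighbours but were dropped beside each other. The members' neighbours had 2.15 RPM in stimulated Th1, 1.04 in resting Th1, 1.03 in resting Th2 and 0.781 in naive. Those of the other windows had 1.67, 1.05, 1.15 and 0.827. How much this adds to the contrast was not tested. The input, held low by the rule, lay at 0.719 times its neighbours in the members and at 1.24 times in the other stimulated Th1 windows, so its profile differed between the sets as well, and its part in the difference was not tested.

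Beside the members the difference between the stimulated subsets was shallow. At the member itself the rule set it, by asking for a 2.5-fold preference in that window. The rule also favours low stimulated Th2 counts there, and stimulated Th2 lay at 0.779 times its neighbours (0.756 to 0.802). At 200 to 400 bp from the members, other members left out, stimulated Th1 had 1.30 times the RPM of stimulated Th2 (1.28 to 1.32), against 1.07 beside the other stimulated Th1 windows. It was 1.23 at 600 to 1000 bp and 1.21 at 1200 to 2000 bp, so a slight excess of stimulated Th1 reads extended over the surroundings. The ratio of resting Th1 to resting Th2 was 1.00 (0.967 to 1.04) at 200 to 400 bp and 0.924 (0.891 to 0.958) at 600 to 1000 bp. Beside the other stimulated Th1 windows it was 0.899 and 0.874 at these distances. A BRG1 window of stimulated Th1 cells lay next to 393 members, 33.8% (31.1 to 36.6), against 43.5% of the other stimulated Th1 windows.

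**Figure D4:**
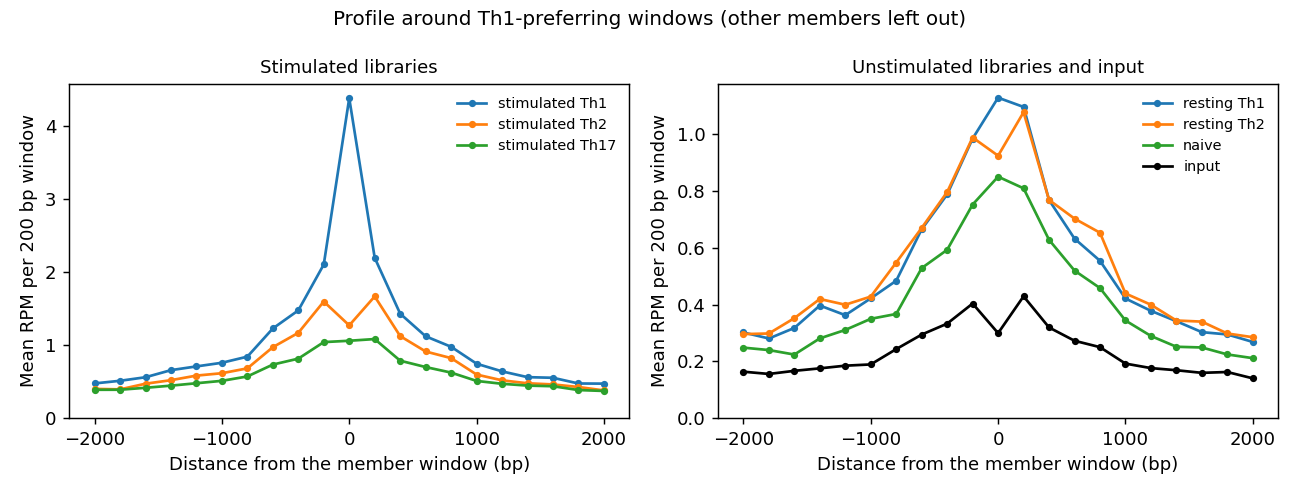
Mean RPM per 200 bp window (y axis) by distance from the member window in bp (x axis), with other members left out, for the stimulated libraries (left) and the unstimulated libraries and input (right). Stimulated Th1 reaches 4.38 RPM at the member, while resting Th1 stands at 1.13 RPM there and resting Th2 at 0.925 RPM, below its neighbours on both sides.

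Few members adjoined another member. The rule kept 5.87% of the stimulated Th1 windows, which by itself makes adjoining members fewer, and no such count is given for other windows. Solitary sites do not follow, since a stimulated Th1 window lay next to 33.8% of the members. Joined over gaps of up to 1 window, the 1163 windows made 1115 regions, of which 1069 were 1 window, 44 were 2 and 2 were 3 windows. The median gap between neighbouring regions was 566 kb, and 162 gaps were at most 50 kb. They lay on every autosome. Members were 7.39% (5.94 to 9.07) of the stimulated Th1 windows of chromosome 10 and 4.14% (2.86 to 5.76) of those of chromosome 12, the highest and the lowest share of 19. Their intervals do not overlap, but they are the extremes of 19 values. Reads of stimulated Th1 came from both strands, with 49.7% on the plus strand, and 6 members had over 90% on 1 strand. Within 10 kb of a Th2-preferring window lay 29 members, 2.49% (1.68 to 3.56), against 4.39% of the other stimulated Th1 windows.

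The regions with the highest stimulated Th1 RPM differed widely at rest. On chromosome 14, 61665001 to 61665400, the counts were 70 stimulated Th1, 19 stimulated Th2 and 34 stimulated Th17 reads, 1 in resting Th1, 6 in resting Th2, 4 in naive and 2 in input. Its level, summed over 2 windows, was 17.9 RPM in stimulated Th1 and 0.553 RPM in resting Th1. Levels of regions are sums over their member windows, so regions of several windows can rank higher. On chromosome 2, 165716001 to 165716200, stimulated Th1 had 67 reads, stimulated Th2 27 and stimulated Th17 29, with 14 in resting Th1, 5 in resting Th2, 8 in naive and 2 in input. Here resting Th1 stood at 7.74 RPM, resting Th2 at 3.73 RPM and naive at 3.86 RPM, a resting ratio of 2.08 whose interval (0.706 to 7.36) holds 1. On chromosome 18, 80851201 to 80851400, stimulated Th1 had 62 reads, stimulated Th2 26 and stimulated Th17 12, against 2 in resting Th1 and 1 each in resting Th2, naive and input. The remaining regions of the highest 6 lay on chromosome 13 from 51893401, chromosome 5 from 136013801 and chromosome 10 from 76983401, with 57 to 63 reads in stimulated Th1.

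The clearest preference by its lower bound was on chromosome 11, 108783801 to 108784400. It had 42 stimulated Th1, 5 stimulated Th2 and 10 stimulated Th17 reads, 8.46 times the RPM of stimulated Th17 (4.18 to 18.9), with 0 in resting Th1, 1 in resting Th2, 1 in naive and 0 in input. On chromosome 14, 122229201 to 122229600, stimulated Th1 had 54 reads, stimulated Th2 8 and stimulated Th17 21, with 4 in resting Th1, 0 in resting Th2, 2 in naive and 0 in input. On chromosome 5, 111486201 to 111486600, stimulated Th1 had 41 reads, stimulated Th2 6 and stimulated Th17 9, with 2 in naive, 4 in input and 0 in both resting libraries. The other 3 of this group had 14 to 19 stimulated Th1 reads and 1 stimulated Th2 read each. Of these, the region on chromosome 6 from 91610201 had 5 reads in resting Th1 and 1 in resting Th2, that on chromosome 9 from 61533201 had 2 in resting Th1 and 0 in resting Th2, and that on chromosome 2 from 33673401 had 0 in both. Resting Th1 thus had 0 to 5 reads over the 6 regions.

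Some members had levels at rest as high as after stimulation or higher. On chromosome 17, 74218801 to 74219000, the counts were 41 stimulated Th1, 3 stimulated Th2 and 17 stimulated Th17 reads, 17 in resting Th1, 2 in resting Th2, 6 in naive and 1 in input. Its RPM was 10.5 in stimulated and 9.40 in resting Th1, and the resting Th1 to resting Th2 ratio was 6.30 (1.50 to 56.2). The order of the subsets after stimulation was set by the rule. On chromosome 11, 97861801 to 97862000, the counts were 15 stimulated Th1, 6 stimulated Th2 and 8 stimulated Th17 reads, 24 in resting Th1, 5 in resting Th2, 14 in naive and 0 in input. It held 13.3 RPM in resting Th1 and 3.73 RPM in resting Th2, a ratio of 3.56 (1.33 to 11.9). Stimulated Th1 was lower than resting Th1 there, at 0.288 times (0.141 to 0.573). On chromosome 8, 97544401 to 97544600, there were 15 stimulated Th1, 5 stimulated Th2 and 12 stimulated Th17 reads, with 24 in resting Th1, 14 in resting Th2, 9 in naive and 2 in input. Its resting ratio of 1.27 (0.631 to 2.66) does not set the subsets apart. The other 3 regions with the most resting Th1 reads, on chromosome 15 from 74947001, chromosome 11 from 95228401 and chromosome 9 from 44323601, had 15 to 19 reads in resting Th1 and 7 to 9 in resting Th2. All regions of this group were picked for their resting Th1 reads among 1115. That choice favours high resting Th1 ratios, and the intervals do not allow for it.

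The largest resting differences in favour of Th1 included regions with no resting Th2 read. On chromosome 12, 88177601 to 88177800, there were 34 stimulated Th1, 10 stimulated Th2 and 27 stimulated Th17 reads, with 11 in resting Th1, 0 in resting Th2, 8 in naive and 4 in input. By the exact interval resting Th1 was at least 1.86-fold higher than resting Th2, and it was 2.72 times a floor of 3 counts set in place of the 0. On chromosome 10, 67374801 to 67375000, and chromosome 11, 46157801 to 46158000, the resting counts were 10 in resting Th1 and 0 in resting Th2, at least 1.66-fold more by the exact interval and 2.47 times the floor. Naive had 3 reads in the first and 11 in the second. The opposite order occurred as well. On chromosomes 4 from 88862801, 6 from 54922401 and 10 from 80820401, stimulated Th1 had 13 to 17 reads, resting Th1 0 and resting Th2 6. A count of 0 against 6 is a resting Th1 to resting Th2 ratio of at most 0.630 by the exact interval, and 0.371 with the floor in place of the 0. On chromosome 8 from 81554201 the resting counts were 0 in resting Th1 and 5 in resting Th2. These regions were picked for extreme resting counts among 1115, and their intervals do not allow for that choice.

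Naive reads were most numerous on chromosome 6, 34426201 to 34426400. It had 36 stimulated Th1, 14 stimulated Th2 and 19 stimulated Th17 reads, 9 in resting Th1, 5 in resting Th2, 19 in naive and 1 in input, and its level was 9.19 RPM in stimulated Th1 and 9.17 RPM in naive. On chromosome 13, 104710201 to 104710600, stimulated Th1 had 54 reads, resting Th1 13, resting Th2 2 and naive 17, and resting Th1 was 4.82 times resting Th2 (1.09 to 44.0). On chromosome 19, 5273201 to 5273400, stimulated Th1 had 25 reads, resting Th1 14, resting Th2 10 and naive 14. By contrast, on chromosome 5, 114351401 to 114351600, there were 53 stimulated Th1 reads and 18 each of stimulated Th2 and Th17, with 0 in the unstimulated libraries and in input. Stimulated Th1 was at least 6.40 times resting Th1 by the exact interval, and 8.15 times the floor. The regions on chromosome 8 from 73891601, chromosome 2 from 29505401 and chromosome 6 from 99138401 had 46, 34 and 33 stimulated Th1 reads and likewise no unstimulated read. Being picked for many naive reads or for no unstimulated read, these regions have intervals that do not allow for that choice.

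Groups of 3 or more regions, each within 50 kb of the next, numbered 29 and held 95 regions, 8.52% of all. No such share was taken for the other stimulated Th1 windows. The largest had 6 regions over 104 kb on chromosome 3, from 145784601 to 145888600, with 93 stimulated Th1, 27 stimulated Th2 and 43 stimulated Th17 reads, 14 in resting Th1, 6 in resting Th2, 6 in naive and 9 in input in the member windows. Outside the member windows the same span had 1.91 RPM per kb of stimulated Th1, against 1.07 for stimulated Th2 and 1.17 for stimulated Th17, so stimulated Th1 was also the highest of the stimulated libraries there. The clusters went both ways at rest: resting Th1 was above resting Th2 in 17, below it in 11, and 1 had no read in either. The interval of the resting Th1 to resting Th2 ratio lay above 1 in 2 clusters and below 1 in 0. These 2 are picked from 29, which their intervals do not allow for. One is on chromosome 9, 44863401 to 44887400, where 4 regions had 86 stimulated Th1, 23 stimulated Th2 and 42 stimulated Th17 reads, 14 in resting Th1, 1 in resting Th2, 17 in naive and 2 in input, a resting ratio of 10.4 (1.58 to 439). The other is on chromosome 7, 16784201 to 16790600, where 3 regions within 6.4 kb had 47 stimulated Th1, 11 stimulated Th2 and 31 stimulated Th17 reads, with 18 in resting Th1, 2 in resting Th2, 2 in naive and 7 in input, a resting ratio of 6.67 (1.60 to 59.3). Among the remaining clusters of 4 regions, resting Th1 had 17 reads and resting Th2 had 8 on chromosome 11 from 96971201. On chromosome 10 from 80395401 these counts were 4 in resting Th1 and 1 in resting Th2. The order was the opposite on chromosome 10 from 66945801, with 7 in resting Th1 and 9 in resting Th2, and on chromosome 15 from 98609401, with 1 in resting Th1 and 3 in resting Th2. The intervals of all 4 hold 1.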

How the data were processed

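For each library the authors deposited the aligned positions of its reads (chromosome, both ends and strand), with no count or signal per region. Positions are on mm9, as the submitters' processing notes name it. Which aligner was used, and how reads were filtered, is not given in the sources used here. Libraries went through 18 PCR cycles and a size selection of 250 to 300 bases, per the labels' protocols. From the deposited reads, chromosome Y was left out, 1 read was kept per chromosome, 5′ end and strand, and each 5′ end was moved 75 bp inward. Reads were counted in 200 bp windows from base 0 on the autosomes, and RPM is per 1000000 distinct reads outside chromosome Y. Reads at repeated positions were 10.2% to 11.8% of the stimulated libraries, 28.5% of resting Th1, 36.6% of resting Th2, 41.4% of naive and 7.23% of input. The deepest library was stimulated Th17 and the shallowest resting Th2.

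Ratios of RPM have conditional exact intervals, and ratios of 2 ratios have exact intervals of the odds ratio of read counts. A floor of 3 counts stands for a library with 0 reads. The rule, the window sets and the strata were chosen with earlier results of these data known. Regions were named by fixed ranks: the 6 highest stimulated Th1 levels, the 6 clearest preferences, the 6 with most resting Th1 reads, the 4 highest and 4 lowest resting ratios, the 4 with most naive reads the 4 highest with no unstimulated read, and clusters, of which some are printed. Genes and sequences were not used, because the annotation at hand is of another build. The steps were tested on simulated data. Alternatives covered repeated reads, shift, window start, scaling, depth and each threshold. Python 3.11.15, numpy 2.4.6, pandas 2.3.3, scipy 1.17.1 and matplotlib 3.10.9 were used.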

Additional observations from a re-analysis of the deposited data

Results flagged for a closer look

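Chromosome X was outside the rule and was read in the same way. There, 13 windows passed all conditions of the rule, with 203 reads in stimulated Th1 and 7 in input. This was singled out because it is a signal in data that the report does not use, above the input. The same windows had 24 reads in resting Th1 and 16 in resting Th2, an RPM ratio of 1.11 (0.567 to 2.24), and 16 reads in naive.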

How the results depend on the processing

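Of the results, 10 were recomputed under 15 alternatives, 3 of them (the last 3 in the order below) added after seeing the data. The other strata, centre-to-neighbour ratios, 2-fold shares, single regions and clusters were not. The resting Th1 to resting Th2 ratio of the members stayed above that of the other stimulated Th1 windows in all 15 (1.18 to 1.41 times) and above that of the Th2-preferring windows in all 15 (2.08 to 4.11 times). Values that moved follow: ratios and shares outside the interval of the reported value, and counts that differ by more than 1.5 times. The order is members (count), resting Th1 to resting Th2, resting Th1 to naive, resting Th2 to naive, members over Th2-preferring windows, members over other stimulated Th1 windows, percent of members higher in resting Th1 than in resting Th2, naive to input of members over Th2-preferring windows, resting Th1 to resting Th2 in the strongest stratum, and percent of members passing the level and input conditions in resting Th1, skipping those that did not move. Scaling by the median 10 kb bin gave 3435 members, 0.887 (reversed), 1.49, 1.68, 2.21, 1.19, 35.3%, 2.11, 0.978 (reversed) and 5.07%. A 2-fold preference gave 2775 members, 1.13, 2.44, 1.24, 2.45 and 10.9%. A 3-fold preference gave 592 members, 0.976 for resting Th2 to naive (reversed), 4.11 and 6.59%. At least 2 RPM gave 2827 members, 1.13, 2.62, 1.23, 39.9%, 2.42, 1.29 and 4.70%, and at least 4 RPM gave 511 members, 3.67, 48.9%, 3.57 and 11.7%. Keeping repeated reads gave 10.4% passing in resting Th1. Windows with at least 1 input read numbered 719, with 2.95. Choosing on odd-numbered reads gave 1848 members, 1.11, 2.57 and 1.21, and on plus-strand reads 3187 members, 1.08, 1.21 for resting Th2 to naive, 2.08, 1.18, 41.3%, 1.84 and 1.32. Unmoved 5′ ends gave 2.83 and 5 times the input gave 3.59, both over the Th2-preferring windows. The cause of these shifts was not tested, beyond the count of members, which thresholds and depth set by construction. Depth limits single windows most: a resting Th2 window passes 3 RPM with 5 reads. No paired analysis was possible because each group has 1 library and the labels carry no replicate numbers.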
